A study of Mus musculus with 4 samples.

Results

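The genes described here encode the machinery that brings proteins into mitochondria, folds them there and degrades those that fail, and they were measured in a mouse beta cell line after transfection of siRNA against NF90. They were taken by gene symbol: every gene named Timm or Tomm with a number, together with a list of chaperones, processing enzymes, translocase subunits and proteases. This gave 48 genes of the 22180 tested, 25 of the 26 listed by name and 23 Timm and Tomm genes. Dnajc19, Tomm5 and Tomm6 were not analysed here: their probe sets are shared with other genes. Where a gene had several probe sets, the one used was chosen by its mean value over the 4 arrays, the highest being kept. This choice touched 3 members, Timm8a1, Timm10b and Dnaja3. It used the level and not the difference between the groups.

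The 2 siNF90 arrays hold RNA from Beta-TC-6 cells given a mixture of 3 RNAi duplexes against NF90, a double-stranded RNA-binding protein. The 2 siNTC arrays hold RNA from the same line given a negative control siRNA. All 4 came from cells grown in medium with 25 mM glucose and 15% serum and transfected with a lipid reagent, and the line is an established mouse insulinoma line. The labels give neither the time after transfection nor whether the arrays of a group were separate cultures, so the spread behind the p-values may be technical. The depletion of NF90 itself is not reported here, so siNF90 below means the arrays that carry this label.

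Nearly all mitochondrial proteins are made in the cytosol. They pass the outer membrane through the TOM channel and are then sorted: barrel proteins to the SAM complex, carrier proteins by small Tim chaperones to TIM22, and proteins with a cleavable presequence to TIM23. The matrix Hsp70, encoded by Hspa9, pulls presequence proteins inwards, a peptidase removes the presequence, and the Hsp60 and Hsp10 chaperonin folds the product. Proteases of the matrix and inner membrane remove damaged or surplus proteins, and several chaperones and proteases are induced when folding in the matrix fails. In beta cells, mitochondrial ATP production couples glucose to insulin release.

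Values are log2 values per probe set, and a difference is siNF90 minus siNTC on that scale. Array medians lay between 1.65 and 1.66 in siNF90 and between 1.66 and 1.68 in siNTC. Of the beta cell markers, 9 of 10 were measured, with values from 3.65 to 10.58, the highest being Iapp (islet amyloid polypeptide). Their log2 values summed to 63.14 and 63.40 in siNF90 and to 63.36 and 63.77 in siNTC, but single markers went both ways: the groups did not overlap in 5, with 3 higher and 2 lower in siNF90, where 39.8% of all genes did not overlap. Slc2a2, the glucose transporter of beta cells, averaged 4.82 ± 0.057 in siNF90 and 5.90 ± 0.14 in siNTC (SD, n = 2 arrays each), a difference of -1.08 ± 0.13 (SE; limma, adjusted p = 0.342, and 0.0153 with a prior variance that follows the level). The transcription factor genes Nkx6-1 and Mafa differed by 0.45 ± 0.12 and 0.38 ± 0.15, also without overlap. The 4 markers of other islet endocrine cells had values from 2.12 to 8.88. Gcg (glucagon) stood highest, at 8.50 to 8.88, above the insulin gene Ins2 at 7.88 to 8.01. Gcg was higher in siNF90 (0.20 ± 0.14) and Sst (somatostatin) lower (-0.23 ± 0.13) without overlap. This list summed to 19.85 and 20.21 in siNF90 and 20.10 and 20.33 in siNTC. Exocrine and duct markers (6 genes) stayed between 0.64 and 1.81, with 2 higher without overlap and 0 lower. Over all genes, 21.9% were higher without overlap and 17.9% lower, and nothing particular to these lists is read from such counts. Of 7 markers of stroma, endothelium and blood, Cd68 and Vim stood above the array medians. Col1a1, Col3a1, Pecam1, Cdh5 and Ptprc had group means from 0.905 to 1.58, below these medians. No measure of background shows whether such values are signal. The log2 values of all 7 summed to 13.51 and 13.70 in siNF90, against 12.10 to 12.16 in siNTC. The 3 higher without overlap, where 21.9% of all genes were, were Cd68 (4.44 and 4.48 in siNF90, 3.32 and 3.35 in siNTC), Vim and Col1a1. Cdh5 was lower without overlap (-0.365 ± 0.136), where 17.9% of all genes were. The part of these marker lists in the results below was not tested.

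Most of the machinery differed little between the groups, and the few larger differences went both ways. Hspa9, the matrix Hsp70, was 1.39-fold lower in siNF90, while Timm17a, a subunit of the channel it pulls through, was 1.31-fold higher. Tomm7 was 1.76-fold higher and Mtx1 1.34-fold, and the protease gene Htra2 was 1.30-fold higher. The largest difference, -0.90 in Timm8a1, was not shared by its 2 other probe sets. None of these genes passed limma's test at an adjusted p under 0.05, apart from Hspa9 with a prior variance that follows the level. Hspd1, Hspe1, Lonp1 and Clpp, the chaperonin and the matrix proteases, had differences between -0.07 (Lonp1) and 0.04 (Hspe1).

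Over the 48 genes the median difference was 0.04, against 0.02 over all genes. Of the members, 27 (56.2%) had a difference above 0, against 53.6% of all genes, and 21 one below. The difference was smaller than 0.2 in either direction in 34 members (70.8%), against 67.1% of all genes. No member and no other gene passed limma's test at an adjusted p under 0.05 over all genes (0 of 22180, 0%); among members the lowest was 0.357. With a prior variance that follows the level of the gene, 101 genes passed limma's test (0.455%), 52 higher (0.234%) and 49 lower (0.221%), and Hspa9 was the 1 member among them.

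At an unadjusted p under 0.05 there were 6 members of 48, where 10.3% of all genes (2281) reached it. They were 4 higher, where 5.87% of all genes were, and 2 lower, where 4.41% were. In 24 members the arrays of the groups did not overlap, against 39.8% of all genes. In 16 of these siNF90 was above siNTC (21.9% of all genes), and in 8 below (17.9% of all genes). As shares of the members, the 6 are 12.5% and the 24 are 50.0%, and nothing particular to these genes is read from them. The arrays of a group differed by a median of 0.10 (siNF90) and 0.12 (siNTC) over the members, and by 0.15 in each group over all genes.

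**Figure D1:**
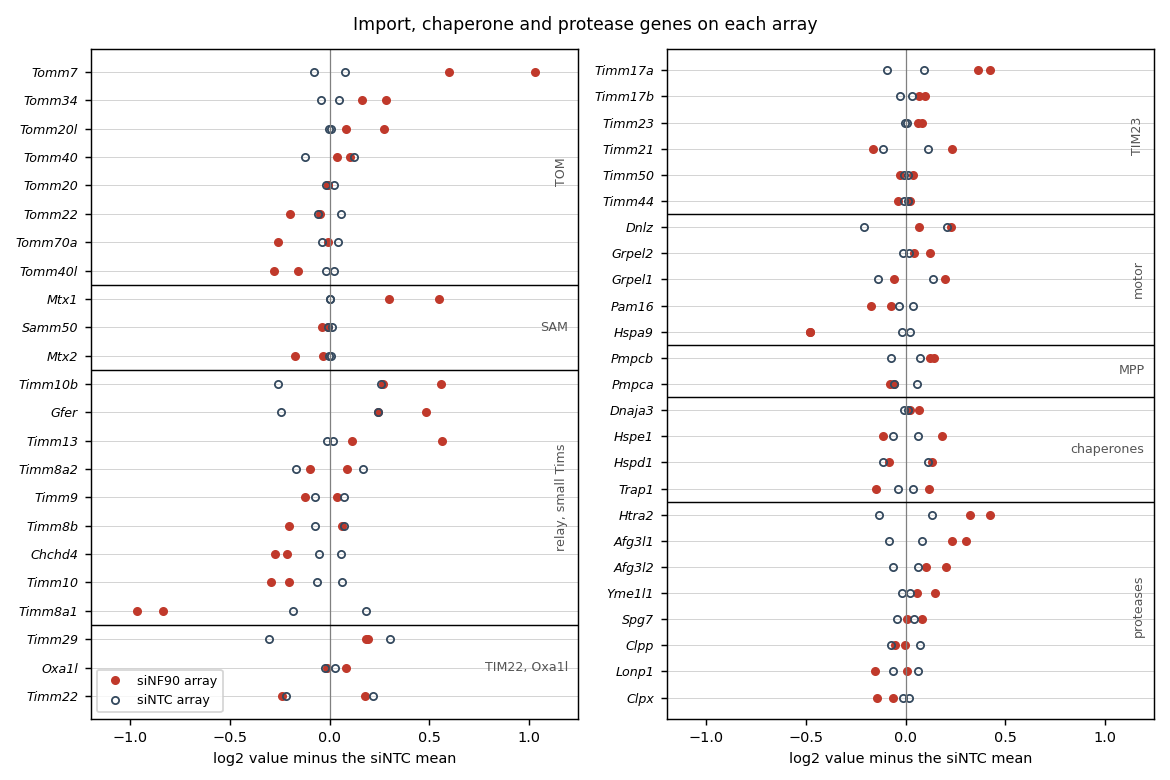
Each row is a gene and each point an array, plotted as its log2 value minus the siNTC mean of that gene; filled red points are the 2 siNF90 arrays and open points the 2 siNTC arrays. TOM is the outer membrane translocase, SAM the sorting and assembly complex, TIM23 and TIM22 the inner membrane translocases and MPP the presequence peptidase. In 34 rows the group means are less than 0.2 apart, while Tomm7 lies to the right and Hspa9 and Timm8a1 to the left. Timm8a1 is shown on probe set 17231676, whose difference the 2 other probe sets of this symbol did not share.

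**Figure D2:**
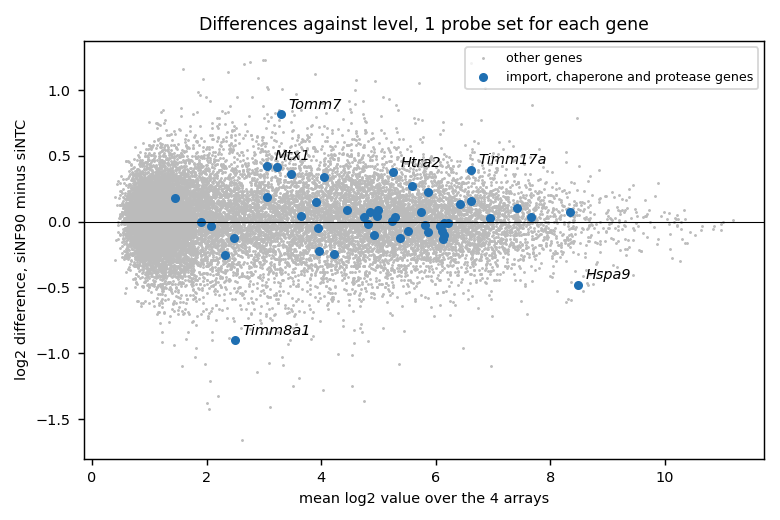
The x axis is the mean log2 value of a gene's probe set over the 4 arrays and the y axis the log2 difference, siNF90 minus siNTC; grey points are the other genes and blue points the 48 members. The members run from a difference of -0.90 (Timm8a1, not shared by its 2 other probe sets) to 0.81 (Tomm7).

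The promoters of the pair Hspd1 and Hspe1 are shown because these 2 chaperonin genes lie head to head and share most of a promoter window, and those of Timm9 and Tomm20 because they hold other matches of the motifs searched. Windows run from 250 bases before to 50 after a gene's start and come from RefSeq (build GRCm38.p6), which matched 41 of the 48 members. Hspa9, Htra2, Tomm7, Tomm40l, Timm21, Grpel2 and Afg3l2 were not matched. Of the Hspe1 window, 285 bases are also in a window of Hspd1 on the other strand. Capitals mark heat shock elements in Hspe1 and Timm9 and an NRF1 site in Tomm20; NRF1 is a transcription factor of nuclear genes for mitochondrial proteins.
Hspe1, chr1:55087898-55088197, plus strand: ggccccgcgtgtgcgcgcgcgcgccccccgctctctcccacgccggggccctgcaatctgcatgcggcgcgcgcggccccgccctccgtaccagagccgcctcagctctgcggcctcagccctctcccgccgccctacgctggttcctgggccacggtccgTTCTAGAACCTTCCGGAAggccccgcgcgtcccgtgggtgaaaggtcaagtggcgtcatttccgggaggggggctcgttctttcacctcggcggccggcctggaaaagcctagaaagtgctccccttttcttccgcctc
Timm9, chr12:71136626-71136925, minus strand: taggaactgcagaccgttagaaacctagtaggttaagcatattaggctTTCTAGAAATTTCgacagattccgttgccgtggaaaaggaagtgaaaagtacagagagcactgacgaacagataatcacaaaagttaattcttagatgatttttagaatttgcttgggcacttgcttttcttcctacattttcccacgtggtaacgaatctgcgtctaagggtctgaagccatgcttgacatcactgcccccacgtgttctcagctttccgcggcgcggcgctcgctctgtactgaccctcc
Tomm20, chr8:126945872-126946171, minus strand: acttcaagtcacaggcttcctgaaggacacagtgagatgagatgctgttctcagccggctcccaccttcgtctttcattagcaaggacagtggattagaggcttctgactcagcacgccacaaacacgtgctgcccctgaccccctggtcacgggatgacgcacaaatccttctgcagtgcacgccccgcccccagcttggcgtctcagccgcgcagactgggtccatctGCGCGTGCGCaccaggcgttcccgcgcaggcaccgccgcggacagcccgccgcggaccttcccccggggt

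The heat shock element was searched on both strands as 3 alternating units, GAA then TTC then GAA, with any 2 bases between units. It was found in the windows of Hspd1, Hspe1 and Timm9, 3 of 41 members (7.32%), and in 0.662% of the 27025 genes with a window. In the shared Hspe1 and Hspd1 window it formed an unbroken run of 18 bases, so 2 of these 3 members hold the same stretch of sequence. The NRF1 site, written as GCGC, any base, then TGCGC, was found in 9 members (22.0%) and in 5.19% of all genes. The ETS site CCGGAAGT was found in 8 members (19.5%) and in 4.31% of all genes. The element bound by the stress factors ATF4 and CHOP, written as TGATG, any base, then AA, was in no member window and in 4.51% of all genes, which says only that these letters are not in these windows. No match of 1 motif overlapped a match of another. A match is a description of the letters, not a bound site.

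Hspd1, Hspe1 and Timm9, whose windows hold the heat shock element letters, had small differences with wide intervals. That of Hspd1 ran from -0.34 to 0.39. Whether these letters bear on the levels was not tested. The differences were 0.03 ± 0.15 (SE) for Hspd1, 0.04 ± 0.15 for Hspe1 and -0.05 ± 0.13 for Timm9. Among the 9 genes with the NRF1 letters the differences ran from -0.25 (Chchd4) to 0.27 (Afg3l1), and among the 8 with the ETS letters from -0.25 (Timm10) to 0.41 (Timm10b).

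In the outer membrane translocase, the entry gate for imported proteins, 4 of 8 measured genes had a difference above 0 and 4 one below, with a median of 0.03. Tomm7, a small subunit that modulates the stability of the complex, had values of 3.92 and 3.49 on the siNF90 arrays and 2.97 and 2.81 on the siNTC arrays (probe set 17446095). The groups did not overlap, and the first siNF90 array was the higher. The difference was 0.81 ± 0.18 (SE, n = 2 arrays each) and did not pass limma's test (adjusted p = 0.357).

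Tomm20, a receptor for presequences, had 6.21 and 6.21 in siNF90 and 6.20 and 6.24 in siNTC (probe set 17514247). The groups overlapped, and the difference of -0.01 had a 95% interval from -0.29 to 0.27. Tomm40, the channel itself, had 5.81 and 5.74 in siNF90 and 5.83 and 5.58 in siNTC, with a difference of 0.07 ± 0.14. Here too the groups overlapped, since the spread within siNTC was wider than the difference. Tomm22, a central receptor, differed by -0.12 ± 0.13 and Tomm70a, the receptor for carrier proteins, by -0.14 ± 0.14. Tomm40l, a paralogue of the channel, differed by -0.22 ± 0.12, without overlap. Tomm34, a cytosolic cofactor of import, differed by 0.23 ± 0.12, also without overlap. Tomm20l, a paralogue of the receptor, lay between 1.36 and 1.64 on all arrays, at or below the array medians, and no measure of background shows whether such a value is signal.

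The sorting and assembly complex builds barrel proteins into the outer membrane, and of its 3 genes 1 had a difference above 0 and 2 below. Mtx1 (metaxin 1) had 3.15 and 3.40 in siNF90 and 2.85 on both siNTC arrays (probe set 17406941). Both siNF90 arrays lay above siNTC, with a difference of 0.42 ± 0.14 that did not pass limma's test (adjusted p = 0.430). Its partner Mtx2 (metaxin 2) had 6.03 and 6.17 in siNF90 and 6.21 and 6.20 in siNTC, with both siNF90 arrays below siNTC and a difference of -0.11 ± 0.12. Samm50, the core barrel of the complex, differed by -0.03 ± 0.12. The 95% interval of the Mtx1 difference ran from 0.09 to 0.76 and that of Mtx2 from -0.40 to 0.19.

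In the intermembrane space, Chchd4 (Mia40) and Gfer drive the oxidative folding of small proteins, among them the small Tim chaperones that carry hydrophobic proteins across this space. Chchd4 had 4.13 and 4.07 in siNF90 and 4.40 and 4.29 in siNTC, and the groups did not overlap (-0.25 ± 0.12). Gfer, the sulfhydryl oxidase that recharges Chchd4, had 3.78 and 3.54 in siNF90 and 3.05 and 3.54 in siNTC. One array of each group stood at the same value, and the difference was 0.36 ± 0.20. Of all 9 genes of this role, 3 had a difference above 0 and 6 one below, with a median of -0.05.

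The partners Timm9 and Timm10, which form the main carrier chaperone, differed by -0.05 ± 0.13 and -0.25 ± 0.12. Timm10 lay at 2.24 and 2.15 in siNF90 and 2.51 and 2.38 in siNTC, without overlap. Timm13 and Timm8b, both small Tims of the intermembrane space, differed by 0.34 ± 0.17 and by -0.07 ± 0.15. The Timm13 arrays stood at 4.44 and 3.99 in siNF90 and 3.89 and 3.86 in siNTC, so most of the difference came from the first siNF90 array. Timm8b had 5.34 and 5.61 in siNF90 and 5.62 and 5.47 in siNTC, and its groups overlapped.

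Timm8a1, the mouse counterpart of the human gene of deafness dystonia syndrome, had the lowest difference of all members. On the probe set used (17231676) it stood at 2.11 and 1.98 in siNF90 and at 3.13 and 2.76 in siNTC. Both siNF90 arrays lay below siNTC, with a difference of -0.90 ± 0.16 that did not pass limma's test (adjusted p = 0.357). The 2 other probe sets with this symbol did not share the difference, and with the mean of all 3 in its place it was -0.25 ± 0.13 (limma, adjusted p = 0.590). Probe set 17537713 had 1.39 and 1.15 in siNF90 and 0.96 and 1.15 in siNTC, a difference of 0.22 ± 0.16, and probe set 17544486 had 1.52 and 1.83 in siNF90 and 1.99 and 1.48 in siNTC, a difference of -0.06 ± 0.23. The SEs of these 2 come from a fit of all probe sets, in which the SE of the probe set used was 0.18. RefSeq places Timm8a1 on chromosome X. Probe set numbers run largely by position, and of the 20 nearest named numbers 20 belong to genes of chromosome 10 for the probe set used, and 20 to genes of chromosome X for each of the others. For the probe sets used of the other 47 members, the gene's own chromosome was the most common among these neighbours. Which transcript probe set 17231676 measures was not tested. Timm8a2, a close paralogue, lay at 1.80 and 1.99 in siNF90 and 2.07 and 1.73 in siNTC.

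Timm10b and Dnaja3 also had several probe sets. For Timm10b, a small Tim that sits on TIM22, the probe set used differed by 0.41 ± 0.21 and the other by 0.11 ± 0.13. For Dnaja3, a matrix cochaperone of Hsp70, the probe set used differed by 0.05 ± 0.12, and the 2 others, with values of at most 2.15, by 0.44 ± 0.24 and -0.15 ± 0.14. SEs of the probe sets not used come from the fit of all probe sets. That fit gave an SE of 0.23 for the probe set used of Timm10b and 0.12 for that of Dnaja3.

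**Figure D3:**
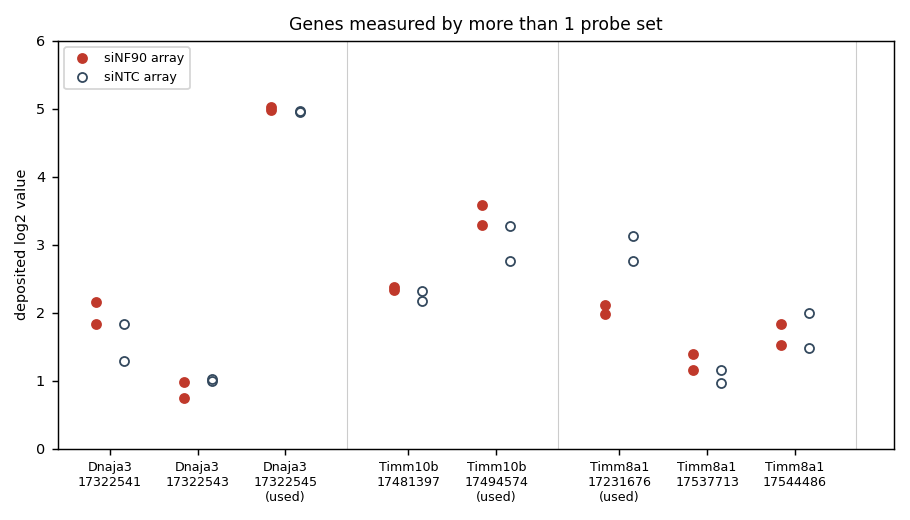
Each column is a probe set of Dnaja3, Timm10b or Timm8a1, and each point an array on the deposited log2 scale; filled red points are siNF90 and open points siNTC arrays, and "used" marks the probe set with the highest mean. The groups stand apart for Timm8a1 on the probe set used and mix on probe set 17544486.

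Carrier proteins enter the inner membrane through TIM22, and proteins made in the matrix are inserted by Oxa1l. In none of the 3 genes of this role did the groups stand apart. Oxa1l had 7.73 and 7.63 in siNF90 and 7.62 and 7.67 in siNTC, a difference of 0.03 ± 0.12. Timm22, the channel, differed by -0.03 ± 0.21 and Timm29, a subunit of the same complex, by 0.19 ± 0.21, and both had a wide spread between the siNTC arrays.

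The presequence translocase TIM23 and its motor held Timm17a, higher in siNF90, and Hspa9, lower, both without overlap. Timm17a, which forms part of the channel, had 6.84 and 6.78 in siNF90 and 6.32 and 6.51 in siNTC (probe set 17227297). Both siNF90 arrays lay above siNTC, with a difference of 0.39 ± 0.13 and a 95% interval from 0.08 to 0.71 (limma, adjusted p = 0.431, and 0.122 with the trend). Timm17b, its paralogue in the same place of the complex, had 5.05 and 5.02 in siNF90 and 4.98 and 4.92 in siNTC, a difference of 0.09 ± 0.12. Timm23, the other channel subunit, had 8.40 and 8.38 in siNF90 and 8.31 and 8.32 in siNTC. The groups did not overlap, since the arrays of each group were close, but the difference was 0.08 ± 0.12. Timm50, the receptor for presequences, differed by 0.01 ± 0.12, Timm44, which tethers the motor, by -0.01 ± 0.12, and Timm21 by 0.04 ± 0.18. Of these 6 translocase genes 5 had a difference above 0, with a median of 0.06.

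Hspa9 (mortalin), the Hsp70 that works both as the import motor and as a matrix chaperone, had 8.25 on both siNF90 arrays and 8.75 and 8.71 on the siNTC arrays (probe set 17353554). The groups did not overlap, and the gap between the groups was wider than the spread in either. The difference was -0.48 ± 0.12 with a 95% interval from -0.76 to -0.20, which limma's test did not call (adjusted p = 0.360). With the trend the SE was 0.05 and limma gave adjusted p = 0.0153, so the call of Hspa9 depended on the prior variance.

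The cofactors of Hspa9 showed no gap wider than the spread within the groups. Still, the groups did not overlap for Grpel2, higher in siNF90, and Pam16, lower. Grpel1 and Grpel2, its nucleotide exchange factors, differed by 0.07 ± 0.16 and 0.09 ± 0.12. Pam16, a regulator of the motor, lay at 2.47 and 2.37 in siNF90 and 2.58 and 2.51 in siNTC (-0.12 ± 0.12), and Dnlz, which keeps Hspa9 soluble, differed by 0.15 ± 0.17. The intervals of these cofactors were wide: that of Grpel1 ran from -0.32 to 0.46. Whether their differences differ from that of Hspa9 was not tested.

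**Figure D4:**
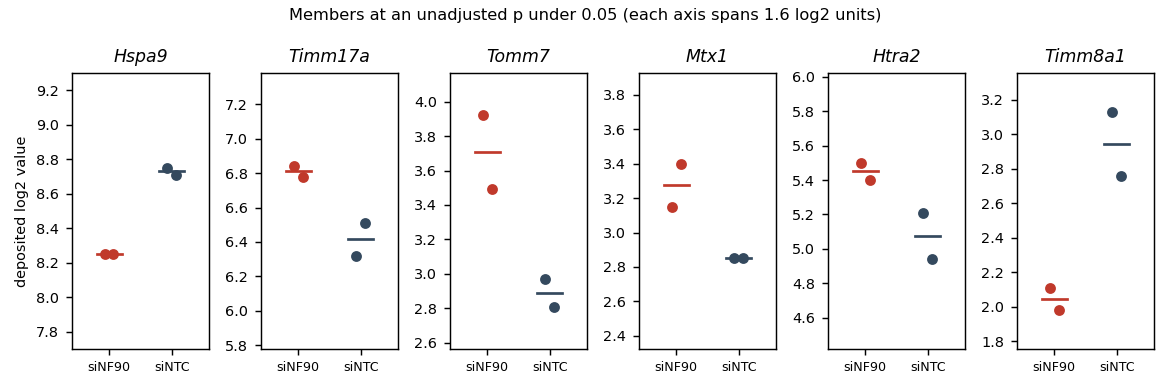
Deposited log2 values of the 6 members at an unadjusted p under 0.05, with siNF90 arrays in red on the left and siNTC arrays in dark blue on the right of each panel; points are single arrays and lines the means of 2 arrays. Each panel spans 1.6 log2 units around its own level, so distances may be compared between panels and levels may not. The arrays of the 2 groups do not overlap in any panel. Timm8a1 is shown on the probe set used, and its 2 other probe sets did not share the difference.

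The presequence peptidase cuts off the targeting signal in the matrix. Its catalytic subunit Pmpcb had 6.51 and 6.49 in siNF90 and 6.29 and 6.44 in siNTC, without overlap, and a difference of 0.13 ± 0.12. Its other subunit Pmpca differed by -0.07 ± 0.12.

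The 4 matrix folding chaperones had differences between -0.02 and 0.05, the narrowest range of any role here. Hspd1 (Hsp60) had 6.86 and 7.08 in siNF90 and 6.83 and 7.06 in siNTC (probe set 17223228). Hspe1 (Hsp10), its lid, had 5.45 and 5.15 in siNF90 and 5.33 and 5.20 in siNTC (probe set 17212882). For both genes the groups overlapped widely, with 95% intervals of the difference from -0.34 to 0.39 and from -0.33 to 0.40. Trap1, a mitochondrial Hsp90, differed by -0.02 ± 0.14.

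Of the 8 protease genes 5 had a difference above 0 and 3 one below, with a median of 0.08. Htra2, a serine protease of the intermembrane space that can also promote cell death once released, had 5.50 and 5.40 in siNF90 and 5.21 and 4.94 in siNTC (probe set 17468075). Both siNF90 arrays lay above siNTC, and the difference of 0.37 ± 0.14 did not pass limma's test (adjusted p = 0.466). The subunits of the matrix-facing inner membrane protease were all above 0: Afg3l1 by 0.27 ± 0.13, Afg3l2 by 0.15 ± 0.12 and Spg7 (paraplegin) by 0.05 ± 0.12. Afg3l1 had 5.75 and 5.68 in siNF90 and 5.53 and 5.36 in siNTC, and its groups and those of Afg3l2 did not overlap, while those of Spg7 did.

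Yme1l1, the protease that faces the intermembrane space, had 7.43 and 7.52 in siNF90 and 7.39 and 7.35 in siNTC, a difference of 0.11 ± 0.12. Lonp1, the main protease of the matrix, had 5.75 and 5.91 in siNF90 and 5.97 and 5.84 in siNTC (probe set 17346317). Its groups overlapped, and the difference of -0.07 ± 0.13 had a 95% interval from -0.39 to 0.24. The matrix protease Clpp and its unfoldase Clpx differed by -0.03 ± 0.12 and -0.11 ± 0.12, and only for Clpx of these 2 did the groups not overlap.

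A wider list of 38 genes of import and quality control outside the members held 32 that were measured, and 20 of them (62.5%) had a difference below 0, against 46.4% of all genes. Their median was -0.10. In either direction 0 of the 32 passed limma's test, with or without the trend (lowest adjusted p without it 0.430). Unadjusted, 3 had a p under 0.05, all lower, where 4.41% of all genes were lower and 5.87% higher. In 12 of the 32 both siNF90 arrays lay below siNTC, against 17.9% of all genes, and in 5 above, against 21.9%. As shares of the list, 9.38% had an unadjusted p under 0.05, against 10.3% of all genes. The groups did not overlap in 53.1%, against 39.8% of all genes. The list was chosen with earlier results of these data known, and nothing particular to it is read from these shares.

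The 3 genes were Agk, Oma1 and Chchd6. Agk, a lipid kinase that is also a subunit of TIM22, had 4.49 and 4.13 in siNF90 and 4.85 and 4.68 in siNTC, a difference of -0.45 ± 0.16. Oma1, a stress-activated protease of the inner membrane that cuts the fusion protein Opa1, had 4.57 and 4.29 in siNF90 and 4.86 and 4.87 in siNTC (-0.43 ± 0.14). Chchd6, a subunit of the complex that shapes cristae, had 2.15 and 2.36 in siNF90 and 2.59 and 2.73 in siNTC (-0.40 ± 0.14). In all 3 genes the groups did not overlap. For Agk and Oma1 the second siNF90 array was the lower.

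3 further genes of the list were named after their values were seen. Parl, the rhomboid protease of the inner membrane, differed by -0.38 ± 0.15, without overlap. Atf5, a transcription factor tied to the mitochondrial unfolded protein response, had 5.62 and 5.45 in siNF90 and 5.33 on both siNTC arrays, a difference of 0.21 ± 0.13. Immt, the core of the cristae complex, stood at 7.04 on both siNF90 arrays and at 6.85 and 6.83 in siNTC, a difference of 0.20 ± 0.12.

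**Figure D5:**
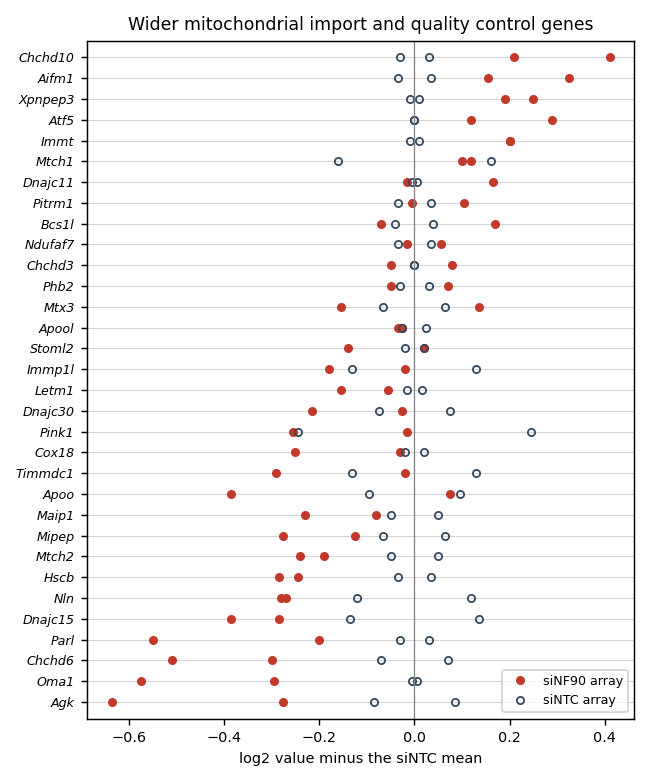
Each row is a gene of the wider list and each point an array, as log2 value minus the siNTC mean; filled red points are siNF90 and open points siNTC arrays. Agk, Oma1 and Chchd6 at the bottom have both siNF90 arrays left of both siNTC arrays.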

How the data were processed

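Gene expression was measured with Affymetrix Mouse Gene 2.1 ST arrays, which probe whole transcripts, from 250 ng of total RNA per array. The authors deposited log2 values for 41345 probe sets on 4 arrays, and per the submitters' processing notes Transcriptome Analysis Console was used. Version, background correction, normalization and log base were not given in the sources used here; base 2 was taken from the range of the values. Precision is limited by the number of arrays.

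By the platform annotation, a single gene symbol belonged to 23521 probe sets, several to 1814 and none, here, to 16010. For each gene the probe set with the highest mean was fitted (22180 genes), with limma 3.58.1 in R 4.3.3 (lmFit, eBayes without a trend, two-sided, Benjamini-Hochberg over all genes, threshold 0.05). The fit had 2 residual degrees of freedom and 3.92 from the prior. A permutation of 2 arrays against 2 cannot go below 0.33, so none was used. The fit was also run on simulated data, with a spread that did not follow the level of the gene. The simulation therefore says nothing of the calls that depend on the prior variance.

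Members and lists were chosen with earlier results of these data known. Values on every array are given for Hspa9, Hspd1, Hspe1, Lonp1, Tomm20, Tomm40, Timm23 and Timm17a, for the member with the highest mean of each role, and for members and wider list genes at an unadjusted p under 0.05; array values of other genes were chosen after they were seen. Alternatives were a replicate block, a robust prior, a prior with a trend, median centring, quantile normalization, a level filter, averaged probe sets, all probe sets in the fit, and each array left out in turn.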

Additional observations from a re-analysis of the deposited data

How the results depend on the processing

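Calls depended on the prior variance. With the trend, 101 genes passed limma's test in place of 0, and 1 member, Hspa9, in place of 0; no other alternative gave a call. The labels tie the replicate numbers to no batch, and same-numbered arrays did not deviate together (r = -0.02 across genes, which are not independent replicates). With the replicate block 0 genes and 0 members passed, and 7 members in place of 6 had an unadjusted p under 0.05 (14.6%, against 8.44% of all genes). The level filter kept genes with either group mean at or above the median level of all genes. Of the 47 members kept, 12.8% had an unadjusted p under 0.05, against 15.9% of 11455 genes. In 48.9% of these members the groups did not overlap, against 48.1% of these genes. With averaged probe sets 5 members had an unadjusted p under 0.05 (10.4%, against 10.2% of all genes). Leaving out each array in turn leaves a group with 1 array, assumed to vary like the other group; 0 genes and 0 members then passed. The median over members ran from 0.0125 to 0.0775, highest without the second siNF90 array. Members without overlap numbered 34 to 38 (70.8% to 79.2%, against 67.5% to 69.6% of all genes), as fewer arrays overlap less often, members above 0 numbered 26 to 28 (54.2% to 58.3%, against 52.5% to 55.6%), and 4 to 5 had an unadjusted p under 0.05 (8.33% to 10.4%, against 5.94% to 7.78%). Of 20 named genes, 13 kept the sign of their difference under all 12 alternatives, among them Hspa9 (-0.50 to -0.46 without an array), Tomm7 (0.60 to 1.03), Timm17a (0.30 to 0.49), Mtx1 (0.30 to 0.55), Htra2 (0.24 to 0.51) and Timm8a1 (-1.08 to -0.71, but -0.25 with averaged probe sets). The groups of these 13 genes do not overlap, so leaving out an array cannot change their sign. The replicate block, the trend and the robust prior leave every difference as it was. The kept signs are therefore no added support for these differences. Oma1 ran from -0.57 to -0.29 and Agk from -0.64 to -0.28. Without an array the sign changed in Hspd1 (-0.09 to 0.14), Hspe1 (-0.12 to 0.19), Lonp1 (-0.155 to 0.005), Oxa1l (-0.015 to 0.085), Timm8b (-0.205 to 0.065), Tomm20 (-0.03 to 0.01) and Tomm40 (-0.055 to 0.195), and Tomm20 was at 0.005 with median centring.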
